A study of Homo sapiens with 6 samples.

Results

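The 9 genes described here make, break down or sense prostaglandin E2: PLA2G4A, PTGS1, PTGS2, PTGES, PTGES2, PTGES3, HPGD, PTGER2 and PTGER4. They were found by their gene symbol, 9 of 50868 genes with values, and they were chosen with their levels in all 6 libraries known, so their levels and differences are given as a description and without a test. The libraries came from 2 established human bladder cancer lines, UM-UC-3 and 5637, sequenced to look for genes that respond to silencing of the long noncoding RNA LNMAT1. Each line carried by lentivirus either a negative control hairpin (sh-NC) or 1 of 2 silencing hairpins, sh-LNMAT1#1 or sh-LNMAT1#2, and all cells had been selected with puromycin for 2 weeks. UM-UC-3 was grown in Dulbecco's medium and 5637 in an RPMI medium, so the line and its medium cannot be told apart. There was 1 library for each construct in each line, 6 in all, and a difference between libraries therefore has no replicate check.

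Prostaglandin E2 is a lipid signal made in steps. The cytosolic phospholipase A2 encoded by PLA2G4A frees arachidonic acid from membranes, the cyclooxygenases PTGS1 (COX-1) and PTGS2 (COX-2) turn it into prostaglandin H2, and a terminal synthase (PTGES, PTGES2 or PTGES3) makes prostaglandin E2. HPGD, a dehydrogenase, inactivates the product, and the receptors EP2 (PTGER2) and EP4 (PTGER4) raise cyclic AMP in cells that sense it. PTGS2 and PTGES are the inducible enzymes of the pathway and PTGS2 is known for its expression in many epithelial tumors, whereas PTGS1 and PTGES3 are usually regarded as constitutive.

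The values are FPKM, fragments scaled to the length of the gene and to the depth of the library, and the depth read back from genes with a single exon was between 19380000 and 24711000 fragments per library. LINC01296, the gene symbol of LNMAT1, was 14.2 FPKM in UM-UC-3 under sh-NC and 6.20 and 6.70 FPKM there under the hairpins. Under the 5637 labels it was 11.7, 4.70 and 2.14 FPKM. The library labelled 5637 sh-NC went with the UM-UC-3 libraries rather than with the other 5637 libraries. Of 11958 genes averaging 1 FPKM or more, 5.10% were at least 2-fold higher in it than in UM-UC-3 sh-NC and 5.65% at least 2-fold lower. Of 12791 genes, 18.5% were at least 2-fold higher and 12.3% lower in both 5637 sh-LNMAT1 libraries than in it. The summed level of 8 epithelial markers was between 21.3 and 31.0 FPKM in the UM-UC-3 libraries, 753 and 1034 FPKM in the 5637 sh-LNMAT1 libraries, and only 26.7 FPKM in the library labelled 5637 sh-NC. Only KRT8 and KRT18 of these 8 reached 1 FPKM in UM-UC-3 and in the library labelled 5637 sh-NC, where EPCAM and CDH1 were near 0, while all 8 did so in 5637 with the hairpins. Each result for 5637 is therefore given against the library labelled 5637 sh-NC and also against UM-UC-3 carrying the same hairpin, a comparison that leaves that library out. Both comparisons use the same 5637 sh-LNMAT1 libraries, and in the first of them the knockdown and the identity of the control library cannot be told apart.

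PLA2G4A and the inducible enzyme genes PTGS2 and PTGES were abundant in 5637 with either hairpin against LNMAT1. They were at or close to the detection floor in the other 4 libraries, apart from a low level of PTGES. PTGER2 and PTGES2 were modestly higher in 5637 with the hairpins than in UM-UC-3 with the same hairpins. PTGES3 and PTGER4 differed less than 2-fold between the lines, and PTGS1 and HPGD were low in all 6 libraries. In UM-UC-3 no member with a mean of 1 FPKM or more differed 2-fold from sh-NC under both hairpins.

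**Figure D1:**
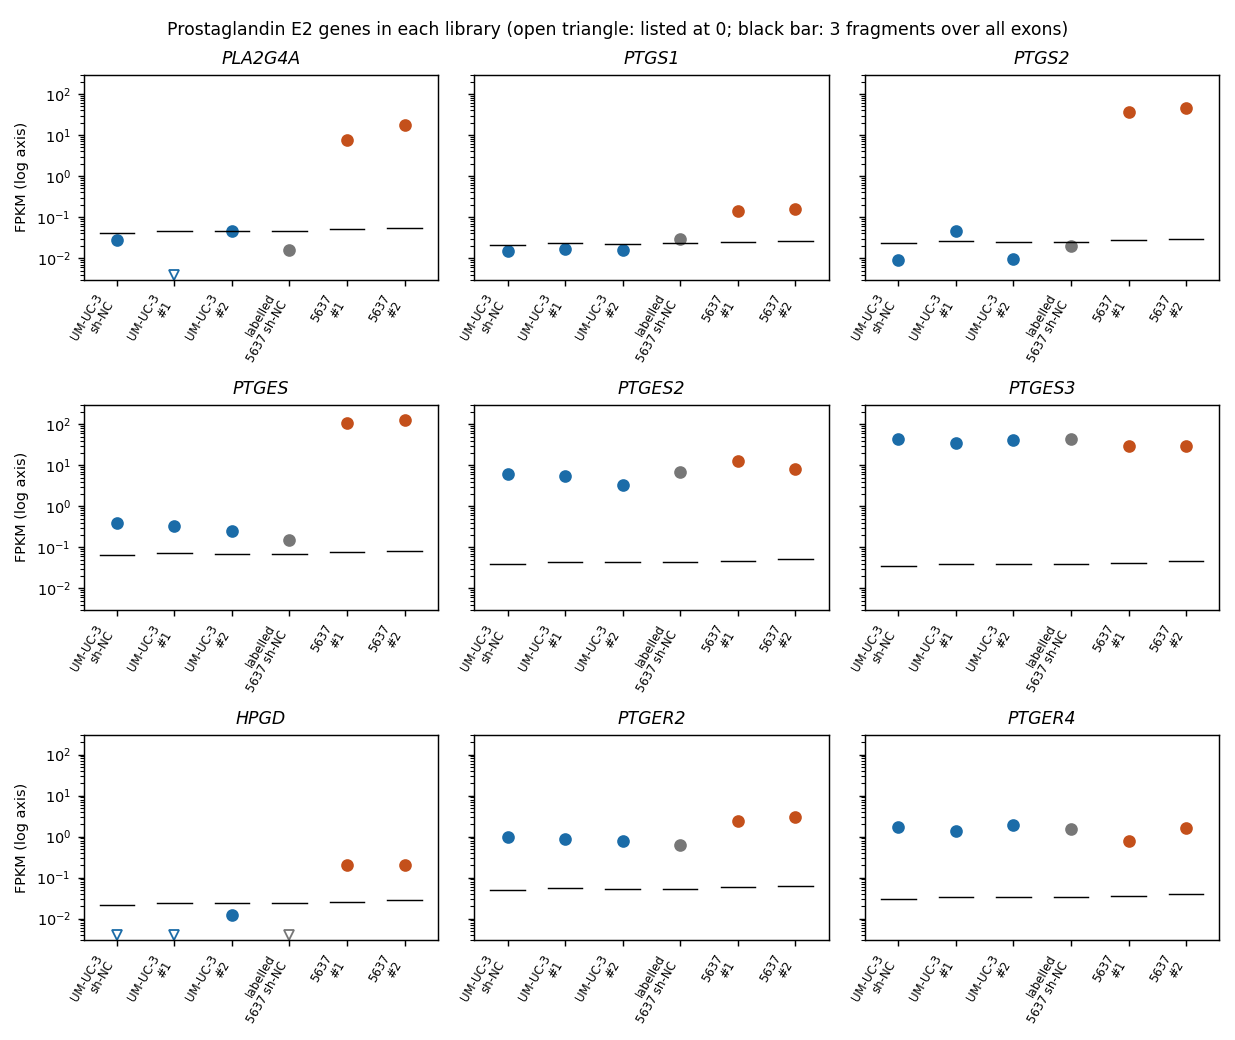
FPKM of the 9 genes on a log axis in each of the 6 libraries: UM-UC-3 in blue, the library labelled 5637 sh-NC in grey and 5637 with the hairpins against LNMAT1 in orange, with #1 and #2 for the hairpins. Each point is 1 library, open triangles are values listed at 0 and black bars mark the level of 3 fragments over all exons of the gene. PLA2G4A, PTGS2 and PTGES stood apart in the 5637 sh-LNMAT1 libraries, while PTGES3 lay between 28.9 and 43.7 FPKM in all 6.

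PLA2G4A encodes the phospholipase that starts the pathway, and lies on chr1:186828953-186988981 of GRCh38, on the plus strand. In UM-UC-3 it stood at 0.0282 FPKM under sh-NC, was listed at 0 under sh-LNMAT1#1 and stood at 0.0455 FPKM under sh-LNMAT1#2. Under the 5637 labels it stood at 0.0155 FPKM for sh-NC, 7.52 FPKM for sh-LNMAT1#1 and 17.8 FPKM for sh-LNMAT1#2. The gene has 1 annotated coding transcript, and the values came out as 2, 0, 3, 1, 450 and 992 fragments in that order. The first 4 libraries were thus at or under the floor of 3 fragments used here, and both 5637 sh-LNMAT1 libraries were far above it. PLA2G4A in 5637 sh-LNMAT1#1 was at least 161-fold higher than in UM-UC-3 sh-LNMAT1#1, taking 3 fragments for the library at 0. With sh-LNMAT1#2 the ratio of FPKM between the lines was 392, with a 95% counting interval from 134 to 1903. Against the library labelled 5637 sh-NC, with 1 fragment, the ratios were 486 (86.7 to 19219) and 1149 (206 to 45435). Such intervals and floors cover counting error only. PLA2G4A was also the member that differed most between the hairpins within 5637, 2.37-fold higher with sh-LNMAT1#2 than with sh-LNMAT1#1 (2.12 to 2.65).

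PTGS2, the inducible cyclooxygenase gene, lies on the minus strand at chr1:186671791-186680427. In UM-UC-3 the gene stood at 0.00906 FPKM under sh-NC, 0.0452 FPKM under sh-LNMAT1#1 and 0.00975 FPKM under sh-LNMAT1#2. Under the 5637 labels it stood at 0.0199 FPKM for sh-NC, 35.8 FPKM for sh-LNMAT1#1 and 44.8 FPKM for sh-LNMAT1#2. Between the shortest coding transcript and all exons of the gene, these levels stand for 1.01 to 1.18, 4.54 to 5.30, 1.01 to 1.18 and 2.02 to 2.36 fragments in the first 4 libraries, and for 3361 to 3923 and 3923 to 4579 fragments in the last 2. The 5637 sh-LNMAT1 libraries did not overlap with the others, and only UM-UC-3 sh-LNMAT1#1 was above the floor among the rest. As log2(FPKM + 0.5), a scale that compresses differences from low values, PTGS2 was 6.06 higher in 5637 than in UM-UC-3 with sh-LNMAT1#1 and 6.47 higher with sh-LNMAT1#2. The ratios of FPKM were 792 (326 to 2620) and 4599 (830 to 176348), so that the size of the difference was poorly bounded by the few fragments in UM-UC-3. Against the library labelled 5637 sh-NC the log2 differences were 6.12 and 6.45. PTGS2 with sh-LNMAT1#2 was 1.25 times its level with sh-LNMAT1#1 within 5637 (1.20 to 1.31).

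PTGES encodes the inducible membrane-bound synthase that works with PTGS2, and lies on the minus strand at chr9:129738331-129753047. In UM-UC-3 PTGES was measured at 0.399 FPKM under sh-NC, 0.332 FPKM under sh-LNMAT1#1 and 0.258 FPKM under sh-LNMAT1#2. Under the 5637 labels it stood at 0.154 FPKM for sh-NC, 109.9 FPKM for sh-LNMAT1#1 and 126 FPKM for sh-LNMAT1#2. All 6 libraries were above the floor, the lowest with at least 6.12 fragments, and the 5637 sh-LNMAT1 libraries again stood apart from the rest. PTGES reached the highest level per length among the 9 genes in those libraries, above PTGS2 and PTGES3. The ratio of FPKM between the lines was 331 with sh-LNMAT1#1 (194 to 621) and 488 with sh-LNMAT1#2 (269 to 998), log2 differences of 7.05 and 7.38. Against the library labelled 5637 sh-NC the log2 differences were 7.40 and 7.59. In UM-UC-3 PTGES differed from sh-NC by log2 values of -0.11 and -0.25, and the counting intervals of both ratios included 1 (0.374 to 1.80 and 0.270 to 1.47).

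The 250 bases upstream of the starts of these 3 genes are shown because the genes shared their pattern over the libraries, so that a reader can compare what lies in front of them. They come from RefSeq on GRCh38.p14, where all 9 members were matched, and are written 5′ to 3′ along the gene's own strand, ending at the base before the start. The windows are chr1:186680424-186680673 on the minus strand for PTGS2, chr9:129753043-129753292 on the minus strand for PTGES and chr1:186828699-186828948 on the plus strand for PLA2G4A. Capitals mark matches to any of 6 motifs that were searched on both strands, a choice made after the values were seen.
PTGS2: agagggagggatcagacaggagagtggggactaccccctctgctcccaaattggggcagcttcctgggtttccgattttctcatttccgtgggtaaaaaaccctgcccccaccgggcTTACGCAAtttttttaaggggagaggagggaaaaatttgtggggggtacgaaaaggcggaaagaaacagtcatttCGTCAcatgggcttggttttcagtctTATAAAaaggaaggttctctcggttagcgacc
PTGES: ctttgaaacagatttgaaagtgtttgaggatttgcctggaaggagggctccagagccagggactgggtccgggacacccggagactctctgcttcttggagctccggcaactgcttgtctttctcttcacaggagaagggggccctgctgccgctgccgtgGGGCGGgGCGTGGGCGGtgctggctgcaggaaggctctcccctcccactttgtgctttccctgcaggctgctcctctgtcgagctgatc
PLA2G4A: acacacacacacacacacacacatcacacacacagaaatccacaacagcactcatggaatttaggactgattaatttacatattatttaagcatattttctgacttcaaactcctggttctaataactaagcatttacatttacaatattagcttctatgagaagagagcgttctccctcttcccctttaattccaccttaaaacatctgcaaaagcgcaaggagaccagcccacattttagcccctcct

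Among 35116 promoter windows of this length, the TATA box was searched as TATAAA and found in 10.7%, and the short cyclic AMP response element as TGACG, in 21.2%. The C/EBP motif was searched as TTNCGNAA, in 2.18%, and the AP-1 motif as TGANTCA, in 6.57%. The GC box was searched as GGGCGG, in 42.6%, and the EGR1 motif as GCGNGGGCG, in 8.41%. The PTGS2 window held 1 C/EBP match, 1 short cyclic AMP response element and 1 TATA box, in that order toward the start. The PTGES window held 2 GC boxes and 1 EGR1 match that overlaps the second of them, and the PLA2G4A window held none of the 6 motifs. GC content was 50.4% for PTGS2, 61.2% for PTGES and 38.8% for PLA2G4A. No motif of the 6 was thus shared by the 3 windows. A match is a description of the letters and not of a bound site, and occupancy was not measured in these libraries.

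PTGS1, the other cyclooxygenase gene (chr9:122370530-122395703, plus strand), stayed low throughout. UM-UC-3 held 0.0150 FPKM under sh-NC and 0.0166 and 0.0161 FPKM under the first and second hairpin. The 5637 labels held 0.0288, 0.142 and 0.162 FPKM in the same order. The highest of these stands for at most 18.2 fragments and, by the shortest coding transcript, for as few as 1.66, so a fold change of PTGS1 could not be bounded at this depth. The 5637 sh-LNMAT1 values lay above the others without overlap. In 5637 sh-LNMAT1#1 and sh-LNMAT1#2, PTGS2 was by far the more abundant cyclooxygenase transcript per length, at 35.8 and 44.8 FPKM.

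PTGES2 encodes a second membrane-associated synthase and lies on the minus strand at chr9:128120693-128128462, 1625 kb from PTGES between the starts. In UM-UC-3 the level was 6.22 FPKM under sh-NC, 5.53 FPKM under sh-LNMAT1#1 and 3.33 FPKM under sh-LNMAT1#2. Under the 5637 labels it stood at 6.81 FPKM for sh-NC, 12.7 FPKM for sh-LNMAT1#1 and 8.20 FPKM for sh-LNMAT1#2. Both 5637 sh-LNMAT1 libraries were above the other 4, but the gap between 8.20 and 6.81 FPKM was small. Between the lines PTGES2 was 2.31-fold higher with sh-LNMAT1#1 (1.81 to 2.96) and 2.46-fold higher with sh-LNMAT1#2 (1.80 to 3.39). Against the library labelled 5637 sh-NC the ratios were 1.87 (1.49 to 2.35) and 1.20 (0.931 to 1.55), short of 2-fold with both hairpins. In UM-UC-3 the log2 differences from sh-NC were -0.16 and -0.81, and the ratio with sh-LNMAT1#2 was 0.536 (0.388 to 0.734).

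PTGES3 encodes the cytosolic synthase, also known as the HSP90 co-chaperone p23, and lies on the minus strand at chr12:56663341-56688408. UM-UC-3 held 43.7 FPKM under sh-NC and 35.0 and 40.9 FPKM under the first and second hairpin. The 5637 labels held 43.6, 30.2 and 28.9 FPKM in the same order. It was the most abundant member in the 4 libraries where PTGES was low. The 5637 sh-LNMAT1 libraries were the lowest, with ratios to UM-UC-3 of 0.864 for sh-LNMAT1#1 (0.774 to 0.964) and 0.707 for sh-LNMAT1#2 (0.633 to 0.788). The direction was thus opposite to that of PTGES, at a size below 2-fold.

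HPGD, the gene of the prostaglandin dehydrogenase (chr4:174490177-174523154, minus strand), was listed at 0 in UM-UC-3 sh-NC, UM-UC-3 sh-LNMAT1#1 and the library labelled 5637 sh-NC. UM-UC-3 sh-LNMAT1#2 held 0.0120 FPKM, at most 1.52 fragments. The libraries 5637 sh-LNMAT1#1 and 5637 sh-LNMAT1#2 held 0.207 and 0.208 FPKM, between 3.24 and 23.8 fragments. HPGD was thus seen above the floor in the 5637 sh-LNMAT1 libraries alone. At these levels the size of its difference could not be bounded usefully.

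PTGER2, the gene of the EP2 receptor (chr14:52314305-52328606, plus strand), was low but above the floor in all 6 libraries. In UM-UC-3 its level was 0.950 FPKM under sh-NC, 0.860 FPKM under sh-LNMAT1#1 and 0.778 FPKM under sh-LNMAT1#2. Under the 5637 labels it stood at 0.633 FPKM for sh-NC, 2.42 FPKM for sh-LNMAT1#1 and 3.05 FPKM for sh-LNMAT1#2. The 5637 sh-LNMAT1 libraries did not overlap with the other 4. Between the lines the ratio was 2.81 with sh-LNMAT1#1 (1.42 to 5.93) and 3.93 with sh-LNMAT1#2 (1.99 to 8.39), and against the library labelled 5637 sh-NC it was 3.81 (1.79 to 9.02) and 4.82 (2.30 to 11.3). Taken as log2(FPKM + 1), the difference between the lines with sh-LNMAT1#1 was 0.88, short of 2-fold. In UM-UC-3 the log2 differences of PTGER2 from sh-NC were -0.09 and -0.18, and both counting intervals included 1 (0.391 to 2.06 and 0.345 to 1.89).

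PTGER4, the gene of the EP4 receptor (chr5:40679498-40693735, plus strand), showed no such separation. UM-UC-3 held 1.75 FPKM under sh-NC and 1.33 and 1.88 FPKM under the first and second hairpin. The 5637 labels held 1.53, 0.782 and 1.65 FPKM in the same order. The lowest library was 5637 sh-LNMAT1#1, and 5637 sh-LNMAT1#2 lay inside the UM-UC-3 range. PTGER4 was 2.12-fold higher with sh-LNMAT1#2 than with sh-LNMAT1#1 in 5637 (1.55 to 2.92) and 1.41-fold higher in UM-UC-3 (1.11 to 1.81). Per length, PTGER4 was above PTGER2 in the UM-UC-3 libraries and in the library labelled 5637 sh-NC, and below PTGER2 in both 5637 sh-LNMAT1 libraries.

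Of the 9 members, 7 passed a mean of 1 FPKM over the libraries compared between the lines, and PLA2G4A, PTGS2, PTGES and PTGER2 passed only through the 5637 sh-LNMAT1 libraries, where they are high. A gene was counted as changed when both hairpins gave a difference of 2-fold or more with the same sign. By this count, 5 were higher in 5637 than in UM-UC-3 (PLA2G4A, PTGS2, PTGES, PTGES2 and PTGER2) and 0 lower, where 13.5% of 12844 genes were higher and 10.5% lower. Nothing is read from these counts, since the members were chosen on the same values. Against the library labelled 5637 sh-NC 4 members were higher (PLA2G4A, PTGS2, PTGES and PTGER2) and 0 lower, beside the 18.5% and 12.3% of all genes given above. In UM-UC-3, where PTGES2, PTGES3 and PTGER4 passed the filter, 0 were higher and 0 lower than sh-NC, and of 12025 genes 1.08% were higher and 0.358% lower. Between the hairpins in 5637, PLA2G4A was the 1 member of 7 that was 2-fold higher with sh-LNMAT1#2, where 1.24% of 12472 genes were higher and 0.930% lower. Between the library labelled 5637 sh-NC and UM-UC-3 sh-NC, 0 of the 3 members that passed the filter differed 2-fold. Of 11958 genes, 5.10% were higher and 5.65% lower in that comparison. PTGES, under the filter there, had a ratio of 0.385, with a counting interval that included 1 (0.126 to 1.01).

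**Figure D2:**
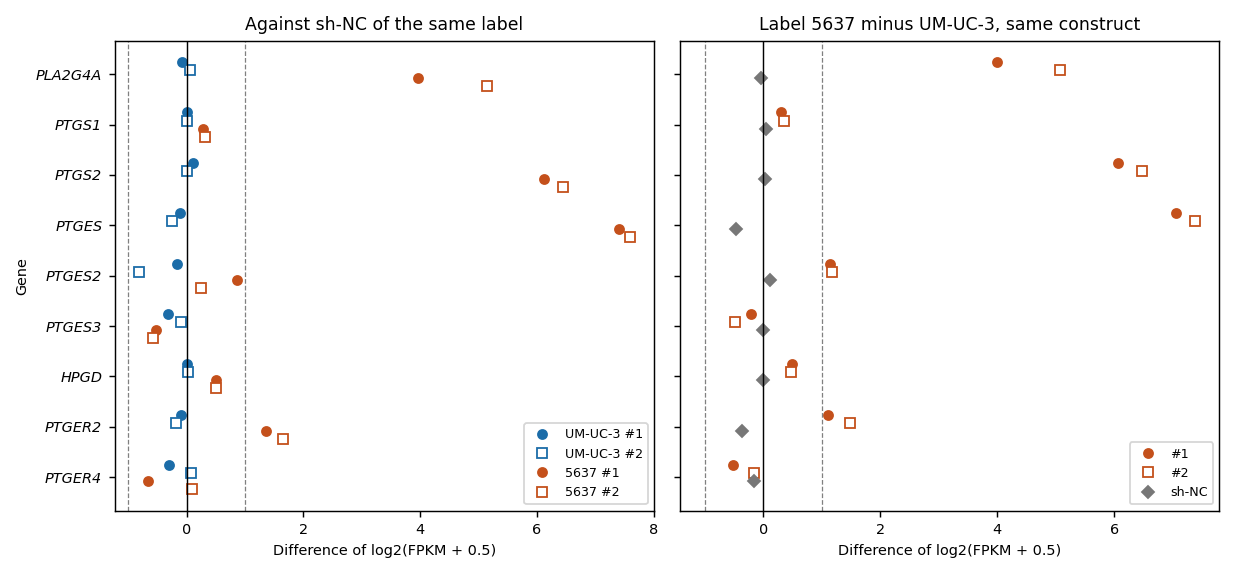
Differences of log2(FPKM + 0.5) for the 9 genes, 1 point per pair of libraries, with dashed lines at 2-fold. Left, each hairpin against the sh-NC library with the same line on its label (UM-UC-3 in blue, 5637 in orange). Right, libraries labelled 5637 minus UM-UC-3 libraries carrying the same construct (hairpins in orange, sh-NC in grey). The UM-UC-3 points lay between -0.81 and 0.10, whereas PTGES reached 7.59 against the library labelled 5637 sh-NC, and the sh-NC pair on the right lay between -0.46 and 0.12.

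By the smaller of the log2 differences with the 2 hairpins, PTGES ranked 17, PTGS2 39 and PLA2G4A 205 from the top among 12844 genes compared between the lines, and PTGES2 and PTGER2 ranked 1511 and 1570. In FPKM, both 5637 sh-LNMAT1 libraries lay above all UM-UC-3 libraries for 5 of the 7 members that averaged 1 FPKM or more over these 5 libraries, and for 32.2% of 12748 genes. They lay below all UM-UC-3 libraries for PTGES3 and for 33.8% of genes. The library labelled 5637 sh-NC was inside the UM-UC-3 range for 5 of the 9 genes, below it for PTGES and PTGER2 and above it for PTGS1 and PTGES2. It was nowhere near the level of PLA2G4A, PTGS2 or PTGES in the 5637 sh-LNMAT1 libraries.

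Markers of other cell types were measured in the same libraries. In the 5637 sh-LNMAT1 libraries the leukocyte genes CD3E and LYZ were listed at 0 and PTPRC was at most 0.0108 FPKM. The summed level of the 6 leukocyte markers was 1.41 and 1.24 FPKM in the 5637 sh-LNMAT1 libraries and between 13.7 and 31.2 FPKM in the others, nearly all of it CD68. The 4 endothelial markers summed to at most 0.303 FPKM in any library. The 5 fibroblast markers summed to 11.7 and 9.20 FPKM in the 5637 sh-LNMAT1 libraries and to at most 2.73 FPKM elsewhere, and the 6 urothelial markers to 23.0 and 22.5 FPKM against at most 4.81 FPKM. COL1A1 (7.92 and 6.37 FPKM) and THY1 (3.3 and 2.5 FPKM) made up most of the former, with DCN and LUM at most 0.0969 FPKM. PPARG (16.6 and 16.8 FPKM) and GATA3 (5.99 and 5.02 FPKM) made up most of the latter. UPK1B was listed at 0 in all 6 libraries and UPK3A was at most 0.0372 FPKM, while UPK2 was higher, at 0.403 and 0.556 FPKM. UPK1A went the other way, at 0 and 0.0485 FPKM against at least 0.293 FPKM. The 6 mesenchymal markers summed to between 140 and 365 FPKM in the UM-UC-3 libraries and the library labelled 5637 sh-NC and to 126 and 121 FPKM in the 5637 sh-LNMAT1 libraries. Within that list VIM, CDH2, ZEB1 and ZEB2 were lower in both 5637 sh-LNMAT1 libraries than in the other 4, VIM at 3.85 and 4.14 FPKM against at least 103 FPKM. FN1 and TWIST1 were higher, FN1 at 109.6 and 102 FPKM against at most 2.27 FPKM, so that FN1 made up most of the sum in 5637 with the hairpins. The part of these differences in the levels of the prostaglandin genes was not tested. In bulk RNA fewer cells of a type and less RNA per cell cannot be told apart.

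The genes around the members were examined in 8 lists holding 107 genes, of which 105 were found once in the values. In UM-UC-3, 55 of them passed the filter, of which 1 was higher with both hairpins and 0 lower, where 1.08% of all genes were higher and 0.358% lower. This was LPCAT1, which returns fatty acids to phospholipids, with log2 differences of 1.61 and 1.14. The lists are therefore described by the comparison between the lines with the same hairpin, where 13.5% of all genes were higher and 10.5% lower and the median log2 difference was -0.02. Lists with few members that passed the filter are given by their members.

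For the supply of arachidonic acid, 1 of 7 release genes that passed the filter was higher in 5637 with both hairpins and 0 were lower, with a median of 0.82. That share of 14.3% is close to the 13.5% of all genes. The gene was FAAH, which hydrolyses fatty acid amides, at 2.33 and 1.58 FPKM in 5637 and 0.413 and 0.210 FPKM in UM-UC-3. Of 9 re-esterification genes, which put arachidonic acid back into phospholipids, 3 were higher (33.3%) and 0 lower, with a median of 0.95. ACSL4, the acyl-CoA synthetase that prefers arachidonic acid, was 12.5 and 14.6 FPKM in 5637 with sh-LNMAT1#1 and sh-LNMAT1#2 and listed at 0 in UM-UC-3 with both. ACSL5, another long-chain acyl-CoA synthetase, was 3.70 and 5.12 FPKM against 0.101 and 0.0574 FPKM, and LPCAT2, a lysophosphatidylcholine acyltransferase, differed by 1.32 with either hairpin on the log2 scale.

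Downstream of prostaglandin H2, 3 of 6 other synthases and reductases were higher and 1 was lower, with a median of 1.13. CBR1, a carbonyl reductase that can act on prostaglandins, was 28.1 and 28.3 FPKM in 5637 and 10.1 and 9.70 FPKM in UM-UC-3. PTGR1, a prostaglandin reductase, was higher by log2 differences of 1.42 and 1.48, whereas PTGR2, the related reductase, was lower by -2.29 and -1.32. The third gene that was higher, FAM213B, falls outside the 3 genes named per list and was singled out after its values were seen. Its log2 differences between the lines were 1.26 and 1.06.

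Among the 8 genes of the receptor list 1 passed the filter, PTGFRN, which encodes a membrane protein that lowers ligand binding by the prostaglandin F2α receptor and is not itself a prostanoid receptor. It was 37.9 and 12.6 FPKM in 5637 with sh-LNMAT1#1 and sh-LNMAT1#2 and 0.306 and 0.0909 FPKM in UM-UC-3. The EP1 and EP3 receptor genes PTGER1 and PTGER3 were at most 0.203 and 0.0100 FPKM in any library. Among the 4 EP receptor genes, PTGER2 and PTGER4 thus held the transcripts that could be compared.

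Of 3 transporter genes that passed, 1 was higher and 1 lower. ABCC4, which exports prostaglandin E2 from cells, was 8.10 and 7.43 FPKM in 5637 and 22.0 and 23.2 FPKM in UM-UC-3, and 22.4 FPKM in the library labelled 5637 sh-NC. SLCO3A1, a transporter that also carries prostaglandins, was 2.39 and 3.76 FPKM against 0.220 and 0.195 FPKM. In the lipoxygenase branch, which makes leukotrienes from the same substrate, 1 of 4 genes was higher and 0 were lower. That gene was ALOX5, the 5-lipoxygenase, at 3.86 and 5.96 FPKM in 5637 and 0.00760 and 0.00737 FPKM in UM-UC-3.

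Of 16 regulators known to act on PTGS2, 2 were higher, 1 was lower and the median log2 difference was 0.16. The shares of 12.5% and 6.25% did not exceed those of all genes, 13.5% and 10.5%. CEBPD, a factor of the C/EBP family, was 42.7 and 45.6 FPKM in 5637 and 0.701 and 1.88 FPKM in UM-UC-3. CEBPB, the other C/EBP factor of this list, differed in the opposite direction and was added after its values were seen. It was 122 and 135 FPKM in 5637 and 217 and 299 FPKM in UM-UC-3. The log2 differences of CEBPB were -0.83 and -1.14, short of 2-fold with sh-LNMAT1#1. HIF1A, the oxygen-regulated factor, was 101 and 109 FPKM against 46.6 and 38.4 FPKM. JUN, a subunit of AP-1, went the other way, with 50.5 and 43.0 FPKM in 5637 and 473 and 289 FPKM in UM-UC-3. EGR1, an immediate early factor, was 16.7 and 19.9 FPKM in 5637 and 61.3 and 34.8 FPKM in UM-UC-3 with the hairpins, short of 2-fold with sh-LNMAT1#2 (log2 differences of -1.85 and -0.79). It was lower against the library labelled 5637 sh-NC (-1.61 and -1.37), and its differences from sh-NC within UM-UC-3 were -0.79 and -1.60.

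Of 14 genes of cyclic AMP signaling after EP2 and EP4, 2 were higher and 0 lower, with a median of 0.40. Their share of 14.3% is close to the 13.5% of all genes that were higher. AREG, which encodes the EGFR ligand amphiregulin and is a known target of this signal, was 60.7 and 56.7 FPKM in 5637, 0.856 and 0.178 FPKM in UM-UC-3 with the same hairpins and 0.466 FPKM in the library that carries the 5637 sh-NC label. ADCY9, an adenylyl cyclase, was higher by log2 differences of 1.62 and 1.08. The other 12 genes of this list that passed the filter did not differ 2-fold with both hairpins. Among those under the filter, CREM, NR4A1, NR4A2, NR4A3 and PDE4D went the other way from AREG with both hairpins. NR4A3 was lower by log2 differences of -1.69 and -0.74 and CREM by -1.07 and -0.52. RAPGEF3 was higher (0.39 and 0.16), and PDE4A and PDE4B differed in sign between the hairpins.

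**Figure D3:**
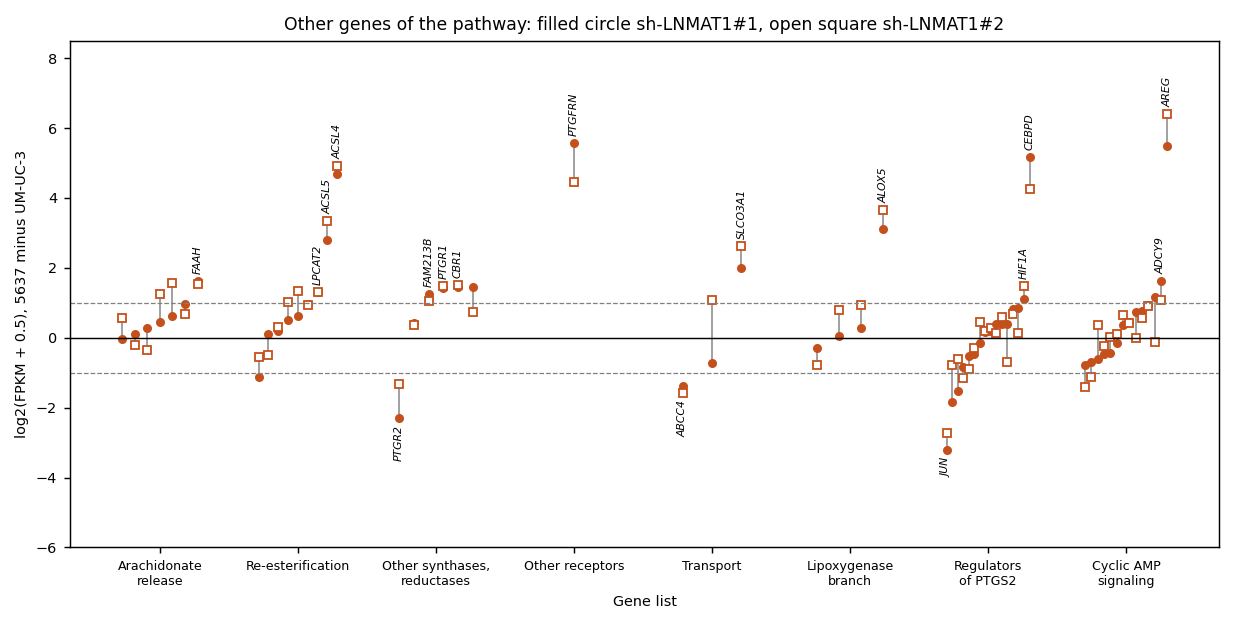
Differences of log2(FPKM + 0.5) between 5637 and UM-UC-3 for the genes of the 8 other lists that averaged 1 FPKM or more over the 4 libraries, with sh-LNMAT1#1 as filled circles and sh-LNMAT1#2 as open squares joined by a line for each gene, and dashed lines at 2-fold. Genes past 2-fold with both hairpins carry their symbols. AREG (5.50 and 6.40), CEBPD (5.17 and 4.27), PTGFRN (5.57 and 4.47) and ACSL4 (4.70 and 4.92) lay highest and JUN (-3.22 and -2.73) lowest.

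PLA2G4A and PTGS2 are neighbours on chromosome 1, with their starts 148526 bases apart, and the genes around them were looked at in a window of 500 kb on either side of the start, a choice made after the values were seen. Of 13 other genes around PTGS2, 3 passed the filter, of which PLA2G4A was the 1 that was higher and 0 were lower. Of all genes, 13.5% were higher and 10.5% lower. PLA2G4A is itself a member chosen on these values, so nothing is read from this count. TPR, a nuclear pore gene, was 42.8 and 39.6 FPKM in 5637 and 25.0 and 30.6 FPKM in UM-UC-3, and C1orf27 was 8.34 and 11.2 FPKM against 8.68 and 10.1 FPKM. PACERR, a noncoding RNA gene that starts next to PTGS2 on the opposite strand, was listed at 0 in the UM-UC-3 libraries and in the library labelled 5637 sh-NC and was 2.33 and 1.31 FPKM in 5637 with sh-LNMAT1#1 and sh-LNMAT1#2. The 52 bases of the PTGS2 window printed above that lie farthest from the start of PTGS2 fall inside PACERR. The library kit keeps the strand, but whether strand was used in the counting is not given in the sources used here, and the annotated PTGS2 and PACERR do not overlap.

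Around PTGES 11 of 31 other genes passed, with 5 higher and 0 lower, where 13.5% of all genes were higher and 10.5% lower. LINC01503, a long noncoding RNA gene, had the largest log2 difference, at 12.5 and 12.7 FPKM in 5637 and listed at 0 in UM-UC-3 with both hairpins. ASB6 (log2 differences of 1.65 and 1.61), USP20 (1.78 and 1.66), TOR1A (1.30 and 1.10) and TOR1B (1.21 and 1.02) were the others, and TOR1B starts 50.1 kb from PTGES. The differences of these 4 were below 2 on the log2 scale, against 7.05 and 7.38 for PTGES. PRRX2, also in this window, was under the filter. It was listed at 0 in the UM-UC-3 libraries and in the library labelled 5637 sh-NC. In 5637 with sh-LNMAT1#1 and sh-LNMAT1#2 it was 1.80 and 1.42 FPKM, log2 differences between the lines of 2.20 and 1.94.

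For the 3 members with the widest range, the genes closest in pattern were found by the root mean square difference of log2(FPKM + 0.5) over the 6 libraries, each gene less its own mean, among 11484 genes. Closest to PTGES were KRT7 (0.11), a keratin gene that is also one of the epithelial markers, JUP (0.11), which encodes plakoglobin of cell junctions, and CXCL5 (0.18), a chemokine gene. KRT7 was 167 and 223 FPKM in 5637 with sh-LNMAT1#1 and sh-LNMAT1#2 and at most 0.895 FPKM in the other 4 libraries. Closest to PTGS2 were CDH3 (0.06), the P-cadherin gene, ASS1 (0.08), which encodes argininosuccinate synthase, and HEPHL1 (0.11). CDH3 was 39.5 and 43.0 FPKM in 5637 with the hairpins and at most 0.0859 FPKM elsewhere. Closest to PLA2G4A were SERPINB1 (0.12), a protease inhibitor gene, IL36G (0.14), a cytokine gene of the interleukin 1 family, and RASSF10 (0.15). SERPINB1 was 9.44 and 17.5 FPKM in 5637 with the first and second hairpin, the same order as PLA2G4A. Over only 6 libraries, any gene high in both 5637 sh-LNMAT1 libraries and near 0 in the others comes close to these members.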

How the data were processed

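RNA was extracted with TRIzol and RNeasy columns and made into TruSeq Stranded mRNA libraries. The authors deposited FPKM per gene. The submitters' processing notes name HISAT2 and hg38, and the counting program and annotation are not given in the sources used here. Of 50869 rows, 1 without values was left out. All 9 members had the identical position in GENCODE 29. Depth was read from single-exon genes, of whose low values 99.0% to 99.3% were whole multiples of 1 fragment (within 0.05). Fragments of members were bounded by the shortest coding transcript and by all exons. Differences were taken on log2(FPKM + 0.5), for genes averaging 1 FPKM or more over the libraries compared, without a test because each group had 1 library. Ratio intervals were 95% Clopper-Pearson intervals at the lower number of fragments. Named genes were all members, up to 3 changed genes per list with the largest smaller difference, the 3 closest genes for the 3 members with the widest range, and LINC01296. In the lists, AKR1C3, with 2 identifiers, and ICER, not found by symbol, were left out. Members and lists were chosen with earlier results of these data known. Alternatives were pseudocounts of 0.1 and 1, no filter or a filter of 5 FPKM, 75th-percentile scaling, limits of 1.5-fold and 5-fold, and each hairpin alone. The counting rule was run on simulated data with counting error only and changes larger than 2-fold planted in well expressed genes. The simulation held no spread between cultures, so it does not show how the rule behaves with 1 library per group or near 0. Python 3.11.15, numpy 2.4.6, pandas 2.3.3, scipy 1.17.1 and matplotlib 3.10.9 were used.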

Additional observations from a re-analysis of the deposited data

Results flagged for a closer look

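For 3 of the members both libraries with a hairpin lay below the sh-NC library in UM-UC-3 and above the library labelled sh-NC in 5637. PTGES was lower than sh-NC under either hairpin in UM-UC-3 but higher under either in 5637, and its mean log2 change in 5637 exceeded that in UM-UC-3 by 7.68. PTGER2 differed in the same way by 1.64 and PTGES2 by 1.04. The difference was not tested, with 1 library per construct in each line, and all 3 values rest on the library labelled 5637 sh-NC, which resembled the UM-UC-3 libraries. For PTGES and PTGER2 the counting intervals of the UM-UC-3 ratios included 1 with either hairpin. For PTGES2 they included 1 with sh-LNMAT1#1 in UM-UC-3 (0.676 to 1.17) and with sh-LNMAT1#2 in 5637 (0.931 to 1.55).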

How the results depend on the processing

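Of 54 recomputed counts of members higher or lower, 53 stayed within 1.5 times the reported count. The exception was the comparison between the lines with a limit of 5-fold, under which 3 members (PLA2G4A, PTGS2 and PTGES) were higher in place of 5. At that limit 5.32% of all genes were higher and 2.43% lower. Many of the other counts were 0 in the main setting, and such a count cannot rise under a stricter limit or filter. PTGER2 was no longer counted as higher between the lines with a pseudocount of 1, where its difference with sh-LNMAT1#1 was 0.88, or with a filter of 5 FPKM, which leaves it out, and 4 members were then higher. Of all genes, 11.7% were higher with that pseudocount and 11.4% with that filter, and 8.94% and 9.79% were lower. Of 141 recomputed log2 differences of members, 0 changed sign. A change of pseudocount cannot change the sign of a difference, so only the 75th-percentile scaling could have, and nothing is read from this. The pseudocount moved the low members most: the difference of PTGS2 between the lines with sh-LNMAT1#2 ranged from 5.50 to 8.68, that of PTGES from 6.65 to 8.46 and that of PLA2G4A from 4.17 to 6.94. Scaling to the 75th percentile shifted the libraries by -0.04 to 0.06 on the log2 scale. No paired analysis was possible because no construct was sequenced more than once in a line, so that a fit with a replicate block could not be made. With either hairpin taken alone, 5 members were higher between the lines, 4 against the library labelled 5637 sh-NC and 0 in UM-UC-3, and 0 were lower in each comparison. Depth limits PTGS1 and HPGD in all libraries and PLA2G4A and PTGS2 in the 4 where they are low.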
